A study of Homo sapiens with 12 samples.

Results

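Ribosome biogenesis and nucleolar genes were followed across 4 groups of OE33 cells as 38 genes chosen by symbol, which cover the factors that transcribe, modify, cleave and assemble ribosomal RNA. The choice was made with earlier results of these data known. All 38 were found by their Ensembl identifiers among the 57500 genes of the count table, and all 38 were among the 15805 genes with enough counts to be tested. They comprised 3 box C/D and 4 box H/ACA small nucleolar ribonucleoprotein (snoRNP) genes, 3 RNA polymerase I subunit genes, 7 genes of nucleolar scaffold and multifunctional proteins, 10 of small-subunit assembly and 11 of large-subunit assembly. OE33 is an established epithelial line from a human esophageal adenocarcinoma, and each group had 3 libraries of polyadenylated RNA described as independent biological replicates. The shAPE1 cells (rABS_shAPE1) had survived 15 days of a daily 20 minute exposure to a mixture of bile salts (200 µM, acidified to pH 5.5) and then stably carried a short hairpin RNA against APE1, the product of APEX1, which cuts DNA at abasic sites during repair and keeps some transcription factors in a reduced, active state. The shCtrl cells (rABS_shCtrl) were the same survivors with a hairpin that targets no gene, the rABS cells were the survivors without a vector, and the Parental cells were untreated. A mock-treated group was not analysed here, so exposure cannot be told apart from the culture time and passage that went with it, and 1 hairpin was directed at APE1, so its loss cannot be told apart from other effects of that hairpin.

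Ribosomes are built mainly in the nucleolus, where RNA polymerase I transcribes one long precursor that is cut and modified into most of the ribosomal RNA. Box C/D and box H/ACA snoRNPs guide the ribose methylation and the pseudouridylation of that precursor, while separate sets of assembly factors, helicases and nucleases mature the small and the large subunit and export them. Many of these genes are known targets of the transcription factor MYC, and their output is tied to the growth rate of tumour cells.

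Library totals ran from 15736087 to 23010377 counts, and within each group the lowest correlation between libraries was 0.987 to 0.990 (log2 scale, across genes). Levels are given as CPM, counts scaled to a common library size with TMM factors. APEX1 had 4.42, 4.50 and 5.88 CPM in shAPE1, 62.0, 56.5 and 60.9 in shCtrl, 81.8, 84.5 and 79.9 in rABS and 52.9, 54.3 and 56.9 in Parental, and it was 12.2-fold lower in shAPE1 than in shCtrl (log2 -3.61, edgeR adjusted p = 3.75e-22). Marker sums, unlike the other levels, were scaled to library totals alone, without TMM factors. The 5 epithelial markers summed to 9161 to 9523 CPM in shAPE1, 11120 to 12193 in shCtrl, 10866 to 13075 in rABS and 11590 to 14468 in Parental. Markers of other cells were low in every library: 6 fibroblast markers summed to at most 27.1 CPM with LUM at 0, 5 leukocyte markers to at most 9.71 and 4 endothelial markers to at most 0.826. The fibroblast sum was 3.53 to 4.22 CPM in rABS and 20.9 to 27.1 in Parental and nearly all of it was COL1A1; its part in the results was not tested.

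The comparison of rABS with Parental cells addressed what had changed in the survivors of repeated exposure. Of the 38 genes, 33 rose, 2 fell and 3 were not called, where a gene was called at a Benjamini-Hochberg adjusted p under 0.05 in edgeR's quasi-likelihood test over all genes tested. Over all 15805 genes, 29.9% were called higher and 29.9% lower. The median log2 fold change was 0.81 over the 38 genes and -0.01 over all genes tested. At least 2-fold rises were seen in 14 of the 38 and a fall of that size in 1, against 10.1% and 9.31% of all genes. The 3 libraries of rABS lay entirely above those of Parental for 33 genes and entirely below for 2, against 31.5% and 31.6% of all genes tested. The 38 genes together held 0.497 to 0.508% of all counts in rABS and 0.285 to 0.296% in Parental, and their summed level was 4904, 5036 and 4883 CPM in rABS and 3108, 3179 and 3243 CPM in Parental. These are bulk libraries, so a larger share of cells expressing a gene and more RNA per cell cannot be told apart.

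**Figure D1:**
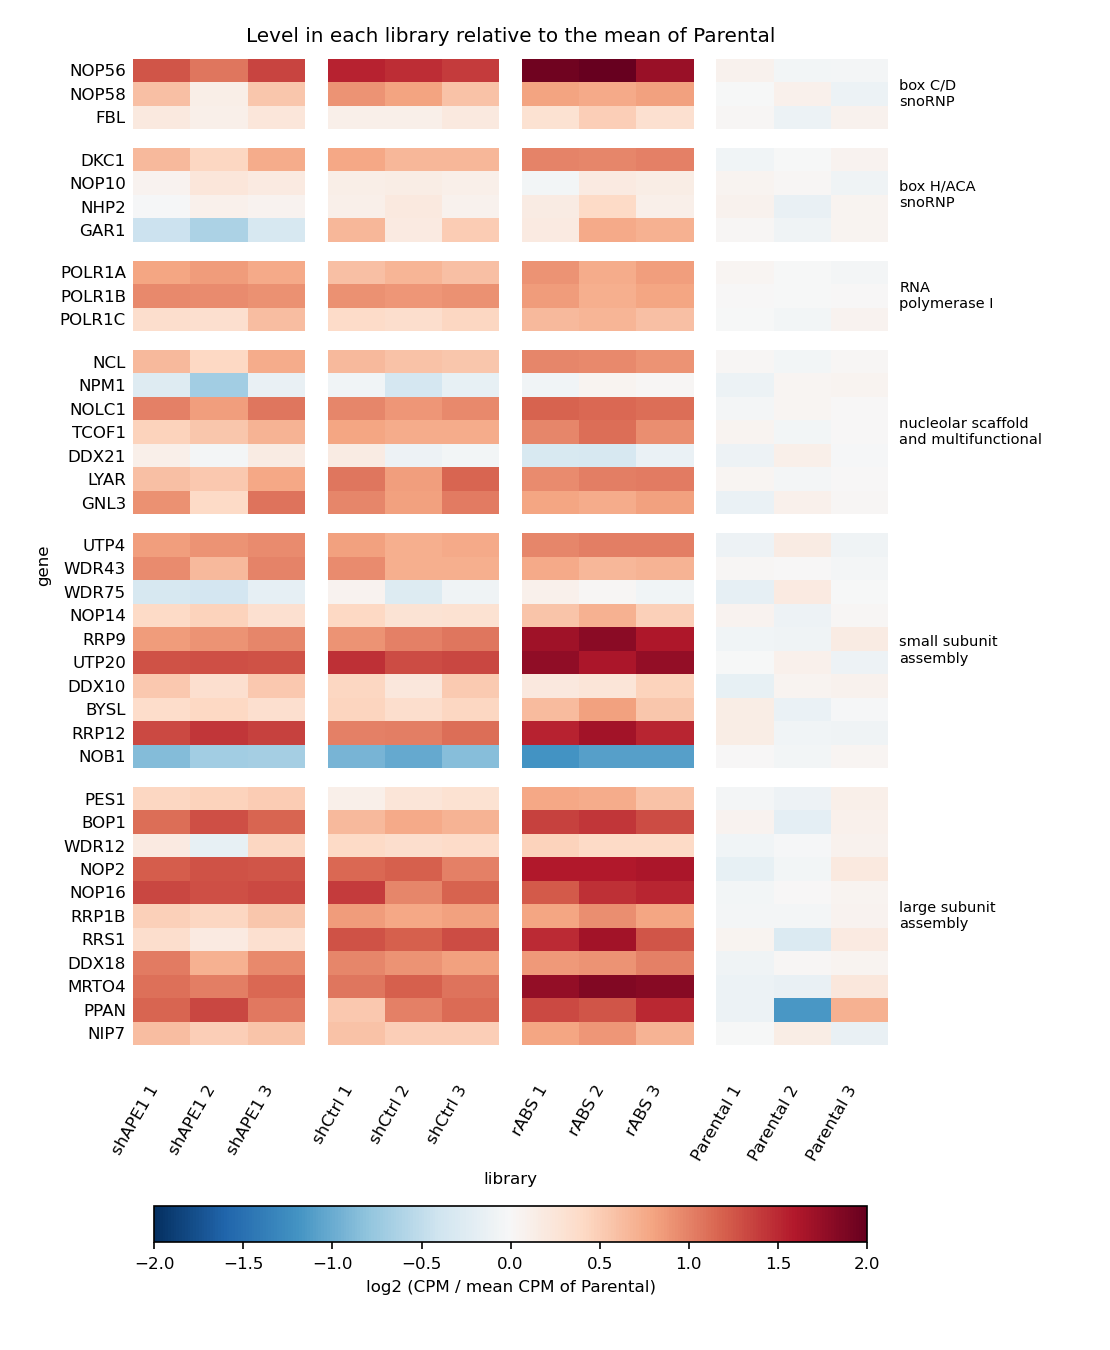
Level of each of the 38 genes (rows, grouped by role) in each of the 12 libraries (columns), as log2 of its CPM over the mean CPM of the 3 Parental libraries; red is higher and blue lower. Most rows are darkest red in the 3 rABS libraries and paler in shAPE1 and shCtrl, while NOB1 is blue in all 9 libraries of the survivors.

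Promoters of the 38 genes were examined for the E-box CACGTG, the palindrome bound by MYC with its partner MAX, which reads the same on both strands. RefSeq promoter windows (GRCh38.p14, 250 bases before to 50 after a start site) were available for 30 of the 38 genes, 37 windows in all. An E-box was present in 15 of these 37 windows, 1 for each of 15 genes, against 7.26% of all 35116 windows and 9.31% of the 15871 windows of genes tested. Of the 16 E-boxes found, 14 began within 50 bases of the start site, a distance that held 37.97% of the 1659 E-boxes in windows of genes tested. A match is a description of the letters and not of binding. Shown here in full, 5′ to 3′ with E-boxes in capitals, are the windows of MRTO4 (chr1:19251555-19251854, plus strand), which rose 3.51-fold and carries an E-box at position 15 counted from the start site as 1, of NOP56 (chr20:2652382-2652681, plus strand), which rose most, and of NOB1 (chr16:69754877-69755176, minus strand), which fell most; neither NOP56 nor NOB1 holds an E-box in its window.
MRTO4: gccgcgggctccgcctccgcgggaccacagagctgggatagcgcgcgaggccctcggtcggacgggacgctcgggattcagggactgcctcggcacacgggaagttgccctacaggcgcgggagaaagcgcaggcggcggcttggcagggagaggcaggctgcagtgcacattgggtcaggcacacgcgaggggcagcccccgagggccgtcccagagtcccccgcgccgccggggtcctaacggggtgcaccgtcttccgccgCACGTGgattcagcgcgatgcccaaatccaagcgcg
NOP56: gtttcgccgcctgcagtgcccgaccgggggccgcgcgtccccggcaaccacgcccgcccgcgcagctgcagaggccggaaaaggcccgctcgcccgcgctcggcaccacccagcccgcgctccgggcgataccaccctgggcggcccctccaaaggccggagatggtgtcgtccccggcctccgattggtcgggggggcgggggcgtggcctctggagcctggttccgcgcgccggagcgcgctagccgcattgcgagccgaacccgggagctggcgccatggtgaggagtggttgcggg
NOB1: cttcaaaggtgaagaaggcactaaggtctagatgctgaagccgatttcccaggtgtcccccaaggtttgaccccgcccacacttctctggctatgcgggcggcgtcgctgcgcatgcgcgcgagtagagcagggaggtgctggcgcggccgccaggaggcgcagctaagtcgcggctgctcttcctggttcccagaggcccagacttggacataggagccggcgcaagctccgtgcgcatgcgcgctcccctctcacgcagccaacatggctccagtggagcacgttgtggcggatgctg

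Shorter stretches around the E-box show that its core is shared by genes that differed in their change between rABS and Parental. In the same notation they come from UTP20 (chr12:101280075-101280120, plus strand), RRP9 (chr3:51941884-51941929, minus strand) and NOP2 (chr12:6568242-6568276, minus strand), which rose more than 3-fold, LYAR (chr4:4290060-4290105, minus strand), which rose 2.00-fold, NOP10 (chr15:34343122-34343167, minus strand), which was not called, and DDX21 (chr10:68956596-68956641, plus strand), which fell.
UTP20: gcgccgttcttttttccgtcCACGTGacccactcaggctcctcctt
RRP9: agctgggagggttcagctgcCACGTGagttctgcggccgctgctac
NOP2: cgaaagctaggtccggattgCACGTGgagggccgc
LYAR: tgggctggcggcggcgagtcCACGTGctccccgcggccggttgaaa
NOP10: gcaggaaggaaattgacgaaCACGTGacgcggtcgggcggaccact
DDX21: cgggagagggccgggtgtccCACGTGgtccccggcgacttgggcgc
Of the 15 genes with an E-box in a window, 13 rose and 1 fell, with a median log2 fold change of 0.71. Among all genes tested, 29.9% were called in each direction. Of the 15 with windows but no E-box, 12 rose and 1 fell, with a median of 0.78, and all 8 genes without a window rose. Neither of these subsets was tested against the other. For DDX21 and LYAR another window held no E-box, and the start site used in these cells was not examined. Among 3 other motifs searched on both strands, the ETS core CGGAAG was in 19 of the 37 windows and 28.9% of windows of genes tested, the GC box GGGCGG in 25 and 65.2%, and the CCAAT box in 14 and 34.4%.

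**Figure D2:**
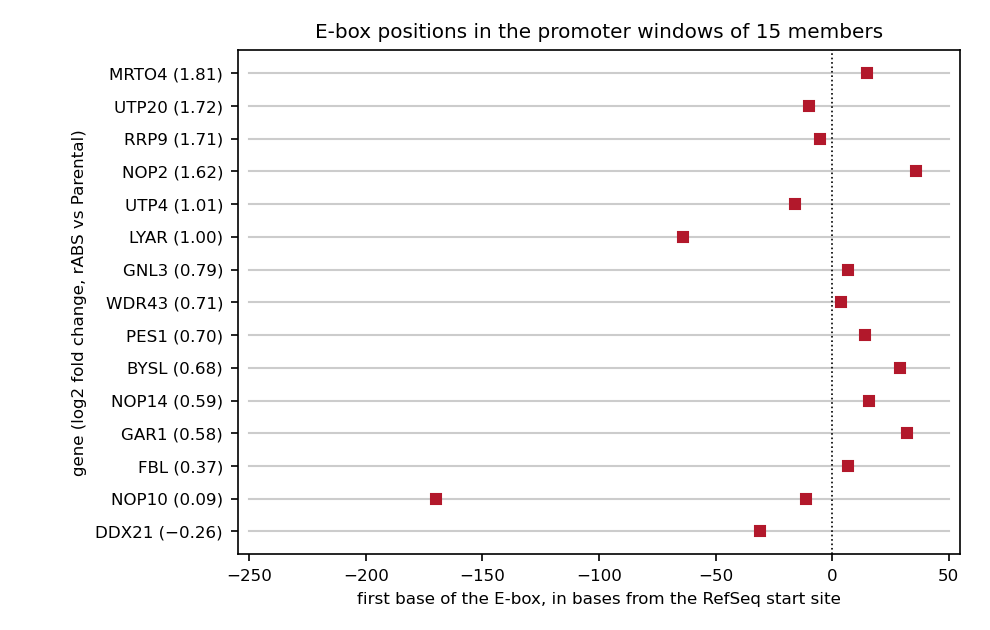
Position of each E-box (red squares) in the RefSeq promoter windows (grey lines, 250 bases before to 50 after the start site) of the 15 genes that hold one, ordered by their log2 fold change in rABS vs Parental, which stands in parentheses. Positions from -64 to 36 hold every E-box but the one of NOP10 at -170.

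Among the box C/D genes, NOP56 and NOP58 encode the paired core proteins that hold the guide RNA, and FBL encodes fibrillarin, the methyltransferase. NOP56 had 121, 106 and 129 CPM in shAPE1, 147, 140 and 133 in shCtrl, 193, 200 and 166 in rABS and 53.6, 48.3 and 49.1 in Parental. No pair of groups overlapped. NOP56 rose 3.70-fold in rABS relative to Parental (log2 1.89 ± 0.08 SE, edgeR adjusted p = 4.40e-19). NOP58 had 52.7, 38.2 and 51.4 CPM in shAPE1, 65, 60.7 and 52.2 in shCtrl, 61, 58.6 and 61.7 in rABS and 34.8, 37.5 and 32.2 in Parental. Every library of the survivors was above every Parental library, and NOP58 rose 1.73-fold in rABS (log2 0.79 ± 0.10 SE, edgeR adjusted p = 4.44e-08). FBL averaged 192 ± 13.7 CPM in rABS and 148 ± 10.4 CPM in Parental (mean ± SD, n = 3 each), a rise of 1.30-fold (log2 0.37, edgeR adjusted p = 2.71e-05). NOP56 (5 snoRNA genes annotated inside it) and NOP58 (4) are also host genes, whose spliced transcripts are what polyadenylated libraries mainly hold.

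The box H/ACA core consists of DKC1 (dyskerin, the pseudouridine synthase), NOP10, NHP2 and GAR1. DKC1 had 105, 90 and 112 CPM in shAPE1, 114, 106 and 106 in shCtrl, 133, 132 and 134 in rABS and 63.9, 66.3 and 70.4 in Parental. It rose 1.99-fold in rABS relative to Parental (log2 0.99 ± 0.08 SE, edgeR adjusted p = 6.37e-13), and these groups did not overlap. GAR1 had 6.33, 5.46 and 6.69 CPM in shAPE1, 13.5, 9.63 and 12 in shCtrl, 9.57, 14.4 and 13.9 in rABS and 8.65, 7.95 and 8.85 in Parental. It rose 1.49-fold in rABS relative to Parental (log2 0.58 ± 0.15 SE, edgeR adjusted p = 0.00158), and in shAPE1 it lay below the other 3 groups in every library. These GAR1 levels rest on 97 to 276 counts per library. NHP2 averaged 48.1 ± 5.07 CPM in rABS and 41.0 ± 3.58 CPM in Parental (log2 0.23, edgeR adjusted p = 0.0267), a call that was lost without rABS replicate 2 and without Parental replicate 2 (edgeR adjusted p of 0.170 to 0.208 in these). NOP10 averaged 67.3 ± 5.74 CPM in rABS and 63.0 ± 3.20 CPM in Parental and was not called (log2 0.09, 95% interval -0.06 to 0.25). The log2 fold changes of the 4 genes ran from 0.09 for NOP10 to 0.99 for DKC1, and differences between them were not tested.

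POLR1A and POLR1B encode the 2 largest subunits of RNA polymerase I and POLR1C a subunit it shares with RNA polymerase III. POLR1A had 183, 191 and 178 CPM in shAPE1, 160, 169 and 161 in shCtrl, 197, 177 and 188 in rABS and 109, 105 and 103 in Parental. It rose 1.77-fold in rABS (log2 0.83 ± 0.07 SE, edgeR adjusted p = 1.84e-12). POLR1B had 74.2, 73.9 and 72.4 CPM in shAPE1, 71.9, 70.4 and 71.8 in shCtrl, 68.8, 63 and 65.8 in rABS and 38.3, 37.9 and 38.5 in Parental, a level in which replicates of a group differed little and the 3 survivor groups stood close together. Its rise in rABS was 1.72-fold (log2 0.78 ± 0.07 SE, edgeR adjusted p = 8.26e-11). POLR1C rose 1.56-fold, with 26.7 ± 0.690 CPM in rABS and 17.2 ± 0.717 CPM in Parental (edgeR adjusted p = 1.96e-06).

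Of the 7 scaffold and multifunctional genes, 5 rose in rABS, DDX21 fell and NPM1 was not called, where 29.9% of all genes were called in each direction. NCL, which encodes nucleolin, an abundant RNA-binding protein of the nucleolus, had 482, 409 and 518 CPM in shAPE1, 483, 462 and 455 in shCtrl, 606, 598 and 573 in rABS and 315, 298 and 313 in Parental. It rose 1.92-fold in rABS (log2 0.94 ± 0.07 SE, edgeR adjusted p = 4.62e-13). NPM1, which encodes nucleophosmin, the protein of the outer nucleolar layer, had 552, 404 and 593 CPM in shAPE1, 624, 517 and 584 in shCtrl, 629, 685 and 668 in rABS and 609, 677 and 686 in Parental. Its rABS and Parental libraries overlapped (log2 0.01, 95% interval -0.19 to 0.20), and 45 annotated NPM1 pseudogenes, with 1621 counts against 134352 for NPM1, could take or give reads. NOLC1 (Nopp140, a chaperone of snoRNPs) rose 2.22-fold, to 402 ± 8.09 CPM in rABS, against 181 ± 4.72 CPM in Parental (edgeR adjusted p = 5.81e-16). TCOF1 (treacle, which supports RNA polymerase I transcription) rose 2.01-fold, to 166 ± 11.5 CPM in rABS, against 82.5 ± 3.06 CPM in Parental (edgeR adjusted p = 1.13e-13). DDX21, an RNA helicase that binds ribosomal precursor and snoRNAs, had 350, 315 and 362 CPM in shAPE1, 361, 302 and 311 in shCtrl, 259, 255 and 296 in rABS and 300, 350 and 319 in Parental. It fell to 83.6% of Parental in rABS (log2 -0.26 ± 0.08 SE, edgeR adjusted p = 0.00461), and its levels in the hairpin groups overlapped those of Parental. LYAR, a nucleolar zinc finger protein involved in rRNA processing, had 24, 23.1 and 27.3 CPM in shAPE1, 33.4, 28.3 and 35.5 in shCtrl, 30.5, 32.2 and 32.7 in rABS and 16.3, 15.4 and 16 in Parental. It rose 2.00-fold in rABS (log2 1.00, edgeR adjusted p = 5.22e-10), and its Parental libraries were below all others. GNL3 (nucleostemin, a nucleolar GTPase) had 81.4, 57.2 and 92.1 CPM in shAPE1, 85.5, 76.3 and 88.9 in shCtrl, 75.1, 72.8 and 76.5 in rABS and 39.4, 46.3 and 44.2 in Parental. Its rise in rABS was 1.72-fold (log2 0.79), and the replicates of shAPE1 were spread more widely than those of any other group.

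Small-subunit assembly genes moved in both directions: 8 of 10 rose in rABS, WDR75 was not called and NOB1 fell. Among all genes tested, 29.9% were called higher and 29.9% lower. UTP20, a large scaffold protein of the small-subunit processome, had 88.1, 89.7 and 88.3 CPM in shAPE1, 101, 90.8 and 92.1 in shCtrl, 125, 113 and 124 in rABS and 36.4, 39.4 and 34 in Parental. It rose 3.29-fold in rABS (log2 1.72 ± 0.08 SE, edgeR adjusted p = 8.36e-19). RRP9, the U3 snoRNP protein, had 20.4, 21.1 and 22.3 CPM in shAPE1, 21.1, 22.7 and 23.8 in shCtrl, 36.5, 39.6 and 34.8 in rABS and 10.7, 10.6 and 12.6 in Parental. It rose 3.28-fold in rABS (log2 1.71 ± 0.11 SE, edgeR adjusted p = 2.39e-15), and the shAPE1 and shCtrl libraries lay between the other groups with no overlap with either. RRP12, an export factor of ribosomal subunits, had 129, 140 and 134 CPM in shAPE1, 104, 105 and 112 in shCtrl, 150, 165 and 148 in rABS and 57.1, 49.2 and 48.9 in Parental. Its rise in rABS was 2.99-fold (log2 1.58 ± 0.08 SE, edgeR adjusted p = 5.17e-18). NOB1, the endonuclease that makes the last cut at the 3′ end of the small-subunit ribosomal RNA, had 98.2, 110 and 112 CPM in shAPE1, 94.2, 87.6 and 99.4 in shCtrl, 78.4, 83.5 and 83.1 in rABS and 179, 173 and 184 in Parental. The Parental libraries were the highest, and NOB1 fell to 45.7% of the Parental level in rABS (log2 -1.13 ± 0.07 SE, edgeR adjusted p = 6.14e-15). A gene on the opposite strand, AC092115.3, overlaps 20.2% of the exonic bases of NOB1. Without a stated strand setting of the counting, reads of the pair cannot be told apart.

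Among the rest of this class, UTP4, WDR43 and WDR75 belong to the subcomplex of the processome that joins the precursor while it is transcribed. UTP4 had 101, 106 and 109 CPM in shAPE1, 100, 94.2 and 96.1 in shCtrl, 112, 116 and 116 in rABS and 53.1, 63.6 and 53.8 in Parental. WDR43 had 131, 107 and 136 CPM in shAPE1, 132, 113 and 113 in shCtrl, 116, 108 and 111 in rABS and 69.6, 69 and 66.5 in Parental. For both, every survivor library was above every Parental library; UTP4 rose 2.01-fold in rABS and WDR43 1.63-fold, whereas WDR75 averaged 37.8 ± 2.13 CPM in rABS and 37.2 ± 4.62 CPM in Parental (log2 0.01, 95% interval -0.18 to 0.21). NOP14, a core processome component, rose 1.51-fold, and BYSL (bystin), which acts late in small-subunit maturation, 1.60-fold. DDX10, an RNA helicase, rose 1.24-fold (log2 0.31 ± 0.10 SE, edgeR adjusted p = 0.00995), a call lost without rABS replicate 3 (edgeR adjusted p = 0.0820).

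All 11 large-subunit assembly genes rose in rABS, against 29.9% of all genes tested. Their median log2 fold change was 1.37, with a range from 0.42 for WDR12 to 1.81 for MRTO4. MRTO4, a relative of the ribosomal stalk protein that occupies its site on the immature particle, had 16.6, 15.6 and 17 CPM in shAPE1, 16.2, 17.7 and 16.4 in shCtrl, 26.2, 27.9 and 27.1 in rABS and 7.13, 6.97 and 9.02 in Parental. It rose 3.51-fold in rABS (log2 1.81 ± 0.12 SE, edgeR adjusted p = 5.89e-15), and the hairpin groups lay between rABS and Parental with no overlap. NOP2, an RNA methyltransferase of the large-subunit RNA, had 76.9, 80.1 and 79.1 CPM in shAPE1, 73.5, 75.7 and 66.4 in shCtrl, 101, 100 and 103 in rABS and 29.4, 31.9 and 38 in Parental. Its rise was 3.06-fold (log2 1.62 ± 0.08 SE, edgeR adjusted p = 3.95e-17), although 54.4% of its exonic bases are shared with an overlapping annotation on the same strand, AC006064.6. RRS1, which helps bring the smallest ribosomal RNA into the particle, had 13.9, 12.3 and 13.6 CPM in shAPE1, 26.5, 24.9 and 26.9 in shCtrl, 30.7, 35 and 26.1 in rABS and 11.4, 8.89 and 12.4 in Parental. It rose 2.82-fold in rABS relative to Parental (log2 1.49 ± 0.12 SE, edgeR adjusted p = 2.70e-12). The 3 shAPE1 libraries lay below every shCtrl and rABS library and overlapped Parental.

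PES1, BOP1 and WDR12 form the PeBoW complex, which is needed to process the large-subunit RNA. BOP1 had 264, 298 and 271 CPM in shAPE1, 191, 205 and 196 in shCtrl, 313, 329 and 300 in rABS and 128, 106 and 130 in Parental. It rose 2.59-fold in rABS (log2 1.37 ± 0.08 SE, edgeR adjusted p = 1.27e-16). PES1 had 117, 120 and 124 CPM in shAPE1, 94.6, 104 and 107 in shCtrl, 148, 145 and 131 in rABS and 85.1, 81.2 and 94.8 in Parental, and rose 1.63-fold in rABS (log2 0.70, edgeR adjusted p = 9.14e-10). WDR12 had 41.8, 33 and 49.5 CPM in shAPE1, 48.8, 46.9 and 48.2 in shCtrl, 51, 48.5 and 48.8 in rABS and 35.2, 36.4 and 39 in Parental, and rose 1.34-fold in rABS (log2 0.42, edgeR adjusted p = 0.000494). The largest of these rises was thus in BOP1 and the smallest in WDR12; differences between the 3 were not tested.

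The rest of the large-subunit class were NOP16, which rose 2.65-fold in rABS, the helicase DDX18 (1.91-fold), RRP1B, a nucleolar relative of the yeast factor Rrp1 (1.79-fold), NIP7, a late processing factor (1.73-fold), and PPAN. NOP16 had 33.1, 32.3 and 32.8 CPM in shAPE1, 34.9, 25.9 and 29.7 in shCtrl, 31, 36.4 and 37.7 in rABS and 12.7, 13.2 and 13.7 in Parental, so its Parental libraries stood apart from all others. DDX18 had 147, 117 and 139 CPM in shAPE1, 141, 134 and 127 in shCtrl, 131, 134 and 144 in rABS and 67.5, 73 and 74.1 in Parental, with overlap among the 3 survivor groups and none with Parental. RRP1B had 71.8, 68.9 and 75.6 CPM in shAPE1, 92.8, 88.1 and 90.5 in shCtrl, 89.1, 97.7 and 89.1 in rABS and 49.9, 50.2 and 54.1 in Parental. All shCtrl and rABS libraries of RRP1B were above all shAPE1 libraries, and these above all Parental libraries. PPAN was the least abundant of the 38, with 10 to 59 counts per library, and its 2.63-fold rise carries a 95% interval of 0.76 to 2.03 on the log2 scale. The read-through gene PPAN-P2RY11 and P2RY11 share 59.8% of its exonic bases, so its counts are uncertain. Genes on the opposite strand overlap 17.1 to 27.4% of the exonic bases of NHP2, NIP7, NOP16, POLR1C and NOP14, and AC009879.2 on the same strand overlaps 11.4% of those of RRS1. Per kilobase of exon in rABS, mean levels ran from 1.05 CPM for PPAN to 172.5 CPM for NPM1, followed by NOP10 (121.4), NOLC1 (101.2) and FBL (88.4), so the 2 genes with the highest levels were among the 3 not called.

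**Figure D3:**
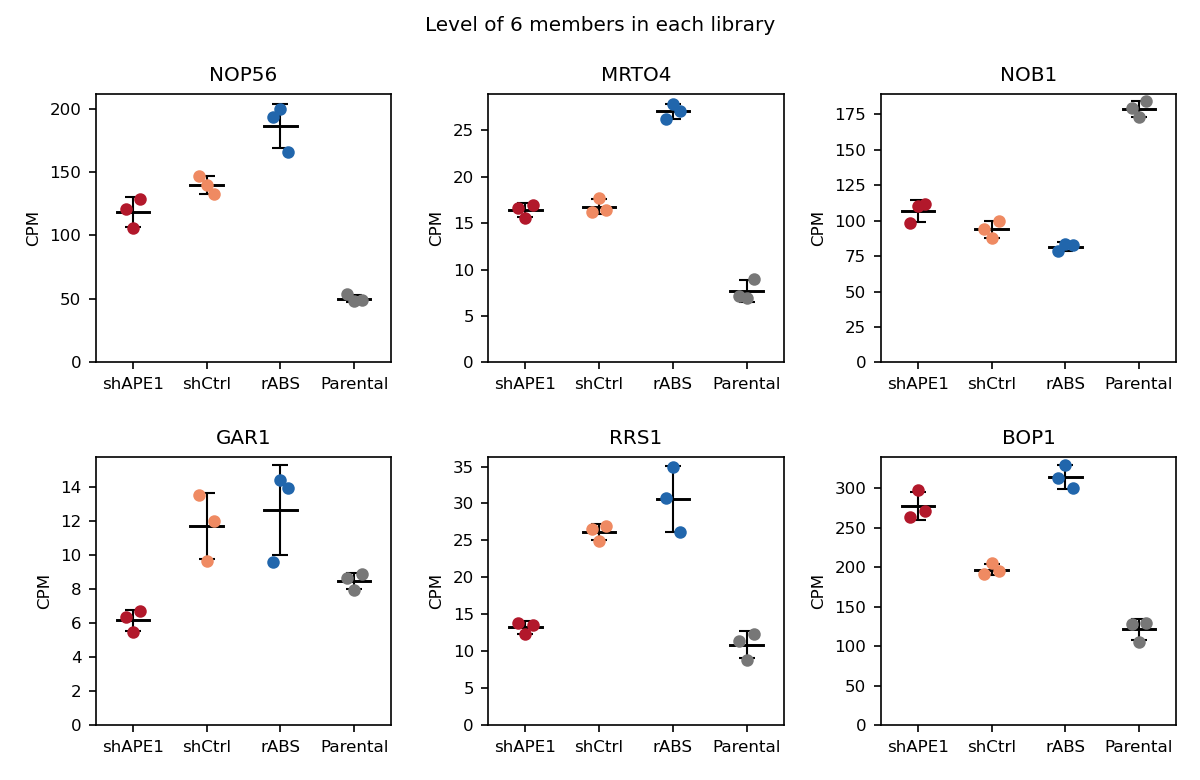
CPM of 6 genes in each library (points), with group means (horizontal bars) and SD (error bars, n = 3), in shAPE1, shCtrl, rABS and Parental from left to right. NOP56 and MRTO4 were highest in rABS, NOB1 was highest in Parental, GAR1 and RRS1 were lower in shAPE1 than in shCtrl, and BOP1 was higher.

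The survivors that carried the non-targeting hairpin were compared with those without a vector, to see what went with the vector itself. Of the 38 genes, 2 were higher and 19 lower in shCtrl than in rABS, against 17.9% and 18.6% of all genes. The median log2 fold change was -0.22, and 0.02 over all genes tested. The summed level was 4426, 4128 and 4241 CPM in shCtrl and 4904, 5036 and 4883 CPM in rABS, so the sums did not overlap. The largest fall was in RRP9, to 61.0% of the rABS level (log2 -0.71 ± 0.10 SE, edgeR adjusted p = 6.76e-07). MRTO4 fell to 62.0% (log2 -0.69, edgeR adjusted p = 4.00e-06), BOP1 to 62.8% (-0.67, 1.18e-08), RRP12 to 69.4% (-0.53, 8.07e-07) and NOP2 to 70.8% (-0.50, 8.92e-06). The 2 that rose were DDX21 (1.20-fold) and NOB1 (1.15-fold), and neither was called without shCtrl replicate 1 or without rABS replicate 1; 1 of the 2 was called without shCtrl replicate 3, rABS replicate 2 or rABS replicate 3. The vector and the handling that went with it cannot be told apart. The same 3 rABS libraries stand in this comparison and in that with Parental, so the values of the 2 are not independent.

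The effect of the APE1 hairpin in the survivors was read from shAPE1 against shCtrl. Of the 38 genes, 5 were higher, 7 lower and 26 not called, against 17.8% higher and 18.8% lower over all genes. The share of members called was thus near that of all genes in both directions, with a median log2 fold change of 0.02, and -0.02 over all genes tested. The summed level was 4349, 3996 and 4564 CPM in shAPE1 and 4426, 4128 and 4241 CPM in shCtrl, and the groups overlapped. RRS1 fell to 50.9% of the shCtrl level (log2 -0.97 ± 0.12 SE, edgeR adjusted p = 6.78e-08), and GAR1 to 52.8% (log2 -0.92 ± 0.16 SE, edgeR adjusted p = 1.89e-05). These were the only members that changed at least 1.5-fold, and the shAPE1 and shCtrl libraries of neither overlapped. LYAR had 24, 23.1 and 27.3 CPM in shAPE1 and 33.4, 28.3 and 35.5 in shCtrl and fell to 76.7% (log2 -0.38 ± 0.10 SE, edgeR adjusted p = 0.00247). RRP1B fell to 79.7% (log2 -0.33 ± 0.07 SE, edgeR adjusted p = 0.000519). Smaller falls were called in NOP58 (log2 -0.32), NOP56 (-0.24) and TCOF1 (-0.19).

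In the other direction, BOP1 rose 1.41-fold in shAPE1 relative to shCtrl (log2 0.49 ± 0.07 SE, edgeR adjusted p = 2.00e-06), with 264, 298 and 271 CPM in shAPE1 and 191, 205 and 196 CPM in shCtrl. RRP12 rose 1.26-fold (log2 0.33 ± 0.07 SE, edgeR adjusted p = 0.000492) and PES1 1.18-fold (edgeR adjusted p = 0.0104). POLR1A (1.13-fold) and NOB1 (1.14-fold) rose least. WDR12, the partner of BOP1 and PES1 in PeBoW, was not called (log2 -0.21, edgeR adjusted p = 0.096), although its unadjusted 95% interval was -0.41 to -0.02. In the box H/ACA core, DKC1 (log2 -0.09, 95% interval -0.24 to 0.06), NOP10 (0.03, -0.12 to 0.18) and NHP2 (-0.09, -0.26 to 0.09) were not called while GAR1 fell. The 95% intervals of NCL (-0.13 to 0.15), NOLC1 (-0.09 to 0.16) and DDX18 (-0.15 to 0.15) spanned 0 on the log2 scale. Of these 12 calls, 6 (RRS1, GAR1, LYAR, RRP1B, BOP1 and RRP12) were made under each of 14 alternatives of scaling, tool, filter, libraries and block that kept shCtrl as the control, and with a minimum of 1.5-fold 2 of them were left, RRS1 and GAR1. The calls of NOP56, NOP58, POLR1A, TCOF1, NOB1 and PES1 were lost under at least 1, that of TCOF1 under 11.

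Single libraries weighed on the shAPE1 comparison. Replicate 2 of shAPE1 was the lowest of its group for 22 of the 38 genes (57.9%), against 38.9% of all genes tested, and replicate 2 of shCtrl for 21 (55.3%), against 37.8%. GNL3 had 81.4, 57.2 and 92.1 CPM in shAPE1 and 85.5, 76.3 and 88.9 in shCtrl, and NOP58, NPM1 and WDR12 were likewise lowest in shAPE1 replicate 2. Without shAPE1 replicate 2, 3 members were called higher and 4 lower; without shCtrl replicate 1, 2 and 4. Whether these libraries differ for a technical reason was not tested.

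Against rABS cells without a vector, shAPE1 cells had 24 members lower and 2 higher, where 26.2% of all genes were lower and 23.8% higher. Compared this way BOP1 was lower (88.4%, log2 -0.18) and so was RRP12 (log2 -0.20), while against shCtrl both were higher. RRS1 (log2 -1.20) and GAR1 (-1.04) were lower in shAPE1 against either control. The comparison with rABS also contains the difference between shCtrl and rABS given above.

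**Figure D4:**
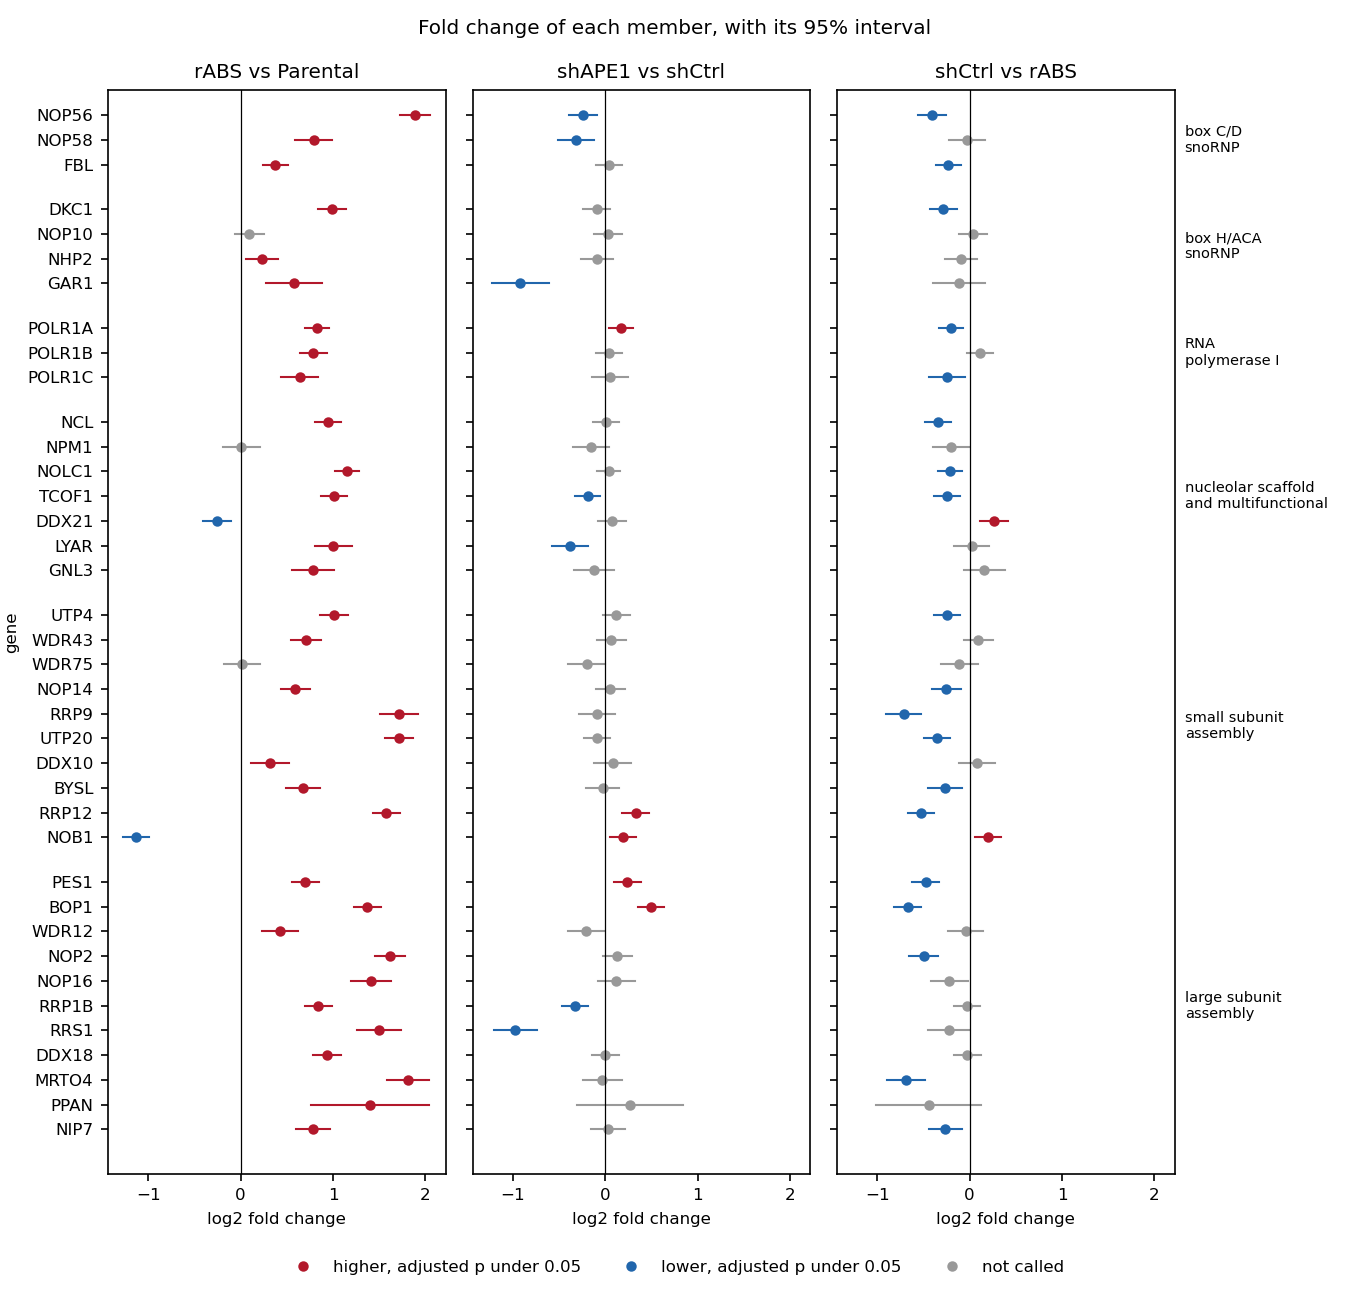
Log2 fold change of each of the 38 genes (points, grouped by role) with its 95% interval (lines) in rABS vs Parental, shAPE1 vs shCtrl and shCtrl vs rABS; red and blue mark genes called higher and lower, grey genes not called. Nearly all points lie right of 0 in rABS vs Parental, around 0 in shAPE1 vs shCtrl, where RRS1 and GAR1 stand to the left, and mostly left of 0 in shCtrl vs rABS.

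Both hairpin groups remained apart from Parental cells, a comparison that includes both the exposure and the vector. In shAPE1, 29 of the 38 genes were higher and 4 lower than in Parental, against 26.2% and 27.5% of all genes, with a median log2 fold change of 0.59. In shCtrl, 31 were higher and 1 lower, against 27% and 26.1% of all genes, with a median of 0.73. Both use the same 3 Parental libraries. NOP56 was 2.35-fold higher in shAPE1 and 2.79-fold higher in shCtrl than in Parental. RRP12 was 2.60-fold higher in shAPE1 and 2.07-fold higher in shCtrl. RRS1 was not called in shAPE1 (log2 0.29, edgeR adjusted p = 0.0571) but was 2.41-fold higher in shCtrl. GAR1 fell below Parental in shAPE1 (log2 -0.46, edgeR adjusted p = 0.0187), a call lost without shAPE1 replicate 2, Parental replicate 1 or Parental replicate 3 (edgeR adjusted p of 0.0521 to 0.0863). It rose above Parental in shCtrl (log2 0.46, edgeR adjusted p = 0.0114), a call lost without shCtrl replicate 1 (0.0846). Besides GAR1, the genes lower in shAPE1 than in Parental were NOB1 (log2 -0.74), NPM1 (-0.35) and WDR75 (-0.30); without shAPE1 replicate 2, or without Parental replicate 2, 2 of these 4 were called. Over the 4 group means, 30 of the 38 genes were highest in rABS and 33 lowest in Parental, and the order rABS, shAPE1, shCtrl, Parental was the most common, in 15 genes.

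Across all genes, transcripts with the 7-base string TGCATTC in the 3′ untranslated region, or with its shifted forms GCATTCT on one side or CTGCATT on the other, had lower fold changes in shAPE1 relative to shCtrl (median log2 -0.16 in 3628 genes with a match and 0.04 in 8843 without); these overlapping strings were picked from the same fold changes, so this is no independent evidence. TGCATTC was in none of the 38 genes, against 13.3% of 12471 genes, and any of the 3 strings in 8 of 38, against 29.1%. The longest annotated untranslated regions of the 38 were shorter, with a median of 620.5 bases against 1358 over all genes. The 8 genes with a match had a median log2 fold change of -0.10, with 1 higher and 3 lower, and the 30 without one a median of 0.03, with 4 higher and 4 lower. These medians use the fold changes from which the strings were picked, so they are no independent evidence either. Among all genes tested, 17.8% were called higher and 18.8% lower. The length of the untranslated region was not taken into account. GAR1 (chr4:109824454-109824482, plus strand) and RRP1B (chr21:43695077-43695105, plus strand), which fell, carry CTGCATT in the stretches below, written 5′ to 3′ with the match in capitals, and so does DDX18 (chr2:117831466-117831494, plus strand), which was not called (positions on GRCh38, GENCODE 29).
GAR1: ccagttgacttCTGCATTaacctgcatga
RRP1B: tggcttaatggCTGCATTagataggatcc
DDX18: ggtgtaatgtaCTGCATTtcttcatttgg
RRS1, which fell, also carries CTGCATT, and so does POLR1A, which rose (log2 0.17). DDX10, WDR12 and NOLC1, which were not called, carry a match too. LYAR, NOP56, NOP58 and TCOF1, which fell, carry none.

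Other genes of the pathway, taken from lists of known factors, were counted in the same fit. These lists and those below were chosen with earlier results of these data known, so their counts are no independent evidence. In rABS relative to Parental, 37 of 44 other small-subunit processome and assembly factors rose and 0 fell, with a median log2 fold change of 0.68 and 7 not called. Those with the lowest adjusted p were NOL6, a processome component, which had 171 ± 4.40 CPM in rABS and 41.8 ± 4.55 CPM in Parental (4.09-fold), NOP9 (2.21-fold) and the U3 snoRNP protein gene IMP3 (2.53-fold). Of 52 other large-subunit factors, 36 rose and 5 fell (median 0.53), led by EBNA1BP2 (2.76-fold), FTSJ3, an RNA methyltransferase (2.19-fold), and the helicase DDX56 (2.03-fold). Of 14 RNA exosome and cofactor genes, which trim the precursors from the 3′ end, 10 rose and 0 fell (median 0.67), among them the subunits EXOSC2 (3.21-fold), EXOSC9 (2.90-fold) and EXOSC6 (2.47-fold). Of 9 snoRNP assembly factors 6 rose and 0 fell (median 0.59), among them the chaperone ATPases RUVBL1 (2.49-fold) and RUVBL2 (1.47-fold) and NAF1 (1.90-fold). RNA polymerase I subunits and factors were mixed, with 8 of 17 higher and 3 lower (median 0.24): the subunit gene POLR1G had 23.2 ± 0.977 CPM in rABS and 3.26 ± 0.132 CPM in Parental (7.08-fold), the nucleolar MYB-binding protein gene MYBBP1A rose 3.43-fold, and POLR1D, shared with RNA polymerase III, was 2.16-fold lower in rABS. The background of 29.9% in each direction applies to these counts.

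Ribosomal protein genes and long non-coding hosts of snoRNAs were counted in the same way. Over all genes, 29.9% were called higher and 29.9% lower in rABS than in Parental. The 36 cytosolic ribosomal protein genes listed are not the whole family. Of these 36, 0 rose and 14 fell in rABS (median log2 -0.15). Those that fell included RPL3, with 1178 ± 50.7 CPM in rABS and 2018 ± 97.4 CPM in Parental, RPS2 (1.57-fold lower) and RPL4 (1.48-fold lower). In shAPE1 and in shCtrl relative to Parental, 23 of the 36 fell and 0 rose, against 27.5% and 26.1% of all genes called lower. These genes have many processed pseudogenes, and how reads with several positions were counted is not given in the sources used here. Of 17 long non-coding snoRNA host genes, 10 fell and 5 rose in rABS, among them SNHG8 (2.03-fold lower), SNHG29 (1.61-fold lower) and SNHG15 (2.04-fold higher). Among the 8 protein-coding members with annotated snoRNAs inside them (NOP56, NOP58, DKC1, NCL, GNL3, WDR43, PPAN and POLR1C), all 8 rose, where 33 of all 38 members rose.

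The same lists were counted in shAPE1 relative to shCtrl. Of the 9 snoRNP assembly factors, 6 fell and 0 rose (median log2 -0.30), among them PIH1D1 (log2 -0.44, edgeR adjusted p = 0.000243), NAF1 (-0.35, 0.00774) and ZNHIT6 (-0.30, 0.0143). Of the 14 exosome genes 5 fell and 0 rose (median -0.19), led by EXOSC2 (-0.64, edgeR adjusted p = 2.36e-06). Large-subunit factors were called in both directions, 10 higher and 13 lower of 52, and small-subunit factors likewise, 8 and 7 of 44. NOC3L, which had the lowest adjusted p of the large-subunit list, averaged 23.6 ± 3.56 CPM in shAPE1 and 47.5 ± 8.75 CPM in shCtrl (edgeR adjusted p = 1.14e-08). Of the 36 cytosolic ribosomal protein genes, 5 were higher and 1 lower, against the background of 17.8% and 18.8%. Of the 17 other RNA polymerase I genes 1 was higher and 3 lower, and of the 17 long non-coding hosts 6 were higher and 2 lower.

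**Figure D5:**
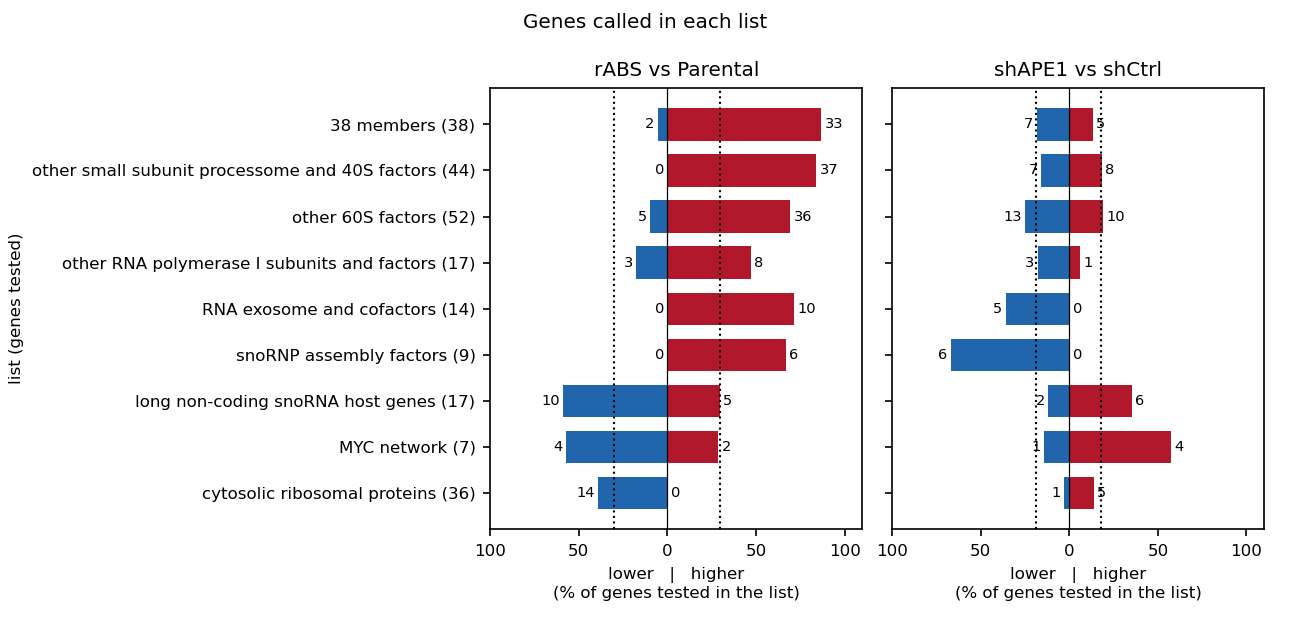
Percent of genes called higher (red, to the right) and lower (blue, to the left) at an adjusted p under 0.05 among the 38 members and in each other list, for rABS vs Parental and shAPE1 vs shCtrl; numbers at the bars are gene counts and dotted lines the percent of all genes tested called in that direction. In rABS vs Parental the members and the assembly lists lie past the dotted line on the higher side, while the ribosomal protein genes listed, a part of that family, have 14 lower and 0 higher.

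MYC and its partners, which act through the E-box, were measured in the same libraries. Of 7 genes of this network, 2 were higher and 4 lower in rABS than in Parental, against 29.9% of all genes in each direction. In shAPE1 relative to shCtrl, 4 were higher and 1 lower, against 17.8% and 18.8% of all genes. MYC averaged 1171 ± 32.7 CPM in shAPE1, 744 ± 24.4 in shCtrl, 651 ± 14.1 in rABS and 518 ± 14.4 in Parental (SD, n = 3 each). It rose 1.26-fold in rABS relative to Parental (edgeR adjusted p = 2.12e-05) and 1.57-fold in shAPE1 relative to shCtrl (2.87e-10). MAX rose 1.53-fold in rABS and 1.53-fold in shAPE1. MXD1, which competes with MYC for MAX, had 39.3 ± 4.48 CPM in rABS and 206 ± 16.6 CPM in Parental, 5.23-fold lower, and 21.7 ± 2.41 CPM in shAPE1 against 38.9 ± 1.32 CPM in shCtrl, 1.79-fold lower. The related repressor genes MNT and MXD4 were 2.06-fold and 2.19-fold lower in rABS than in Parental, but higher in shAPE1 than in shCtrl (1.26-fold and 2.61-fold). The mean of MYC was highest in shAPE1. The relation between MYC or its partners and the 38 genes was not tested.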

How the data were processed

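Polyadenylated RNA of 12 OE33 libraries was sequenced. The values are the deposited read counts per gene, not normalised, in 1 matrix of 57500 Ensembl genes; per the submitters' processing notes, Trimmomatic 0.36, STAR 2.5.2b, featureCounts of Subread 1.5.2 and GRCh38 were used by the authors. How strand and reads with several positions were handled, and from which annotation release, is not given in the sources used here.

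Genes were kept with edgeR's filterByExpr (minimum count 10, minimum total 15), which left 15805. Its robust quasi-likelihood test with TMM scaling used all 12 libraries (edgeR 4.0.16 in R 4.3.3), with Benjamini-Hochberg adjustment over all genes tested and a threshold of 0.05. The 95% intervals on the log2 scale are a normal approximation, with the SE derived from the F statistic. They are somewhat narrower than the test implies: WDR75 in shAPE1 vs shCtrl had -0.401 to -0.003 at an unadjusted edgeR p of 0.055. The procedure was tested on simulated counts. Library totals were 15736087 to 23010377, and a member's least count in a library was 10. The replicates are described as independent by the labels, but nothing names separate cultures or days. The p-values test group differences against a spread between replicates estimated from all 12 libraries. Whether that spread includes separate selections of survivors or separate introductions of the vector is not known.

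The 38 members, their roles and the other lists were chosen with earlier results of these data known. All 38 are named, and up to 3 genes per other list and comparison, by adjusted p. The MYC network is an exception, with MYC, MAX, MXD1, MNT and MXD4 named. Symbols came from a separate list of gene names and, where it lacked a gene, from GENCODE 29. Overlaps came from GENCODE 29 and promoters from RefSeq. Alternatives were RLE and upper-quartile scaling, DESeq2 1.42.0, limma-voom (limma 3.58.1), no filter and a minimum count of 50, a replicate block, only the 2 groups compared, each library left out, a 1.5-fold minimum and rABS as the control of shAPE1.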

Additional observations from a re-analysis of the deposited data

How the results depend on the processing

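Members called higher in rABS than in Parental numbered 32 to 33 when single libraries were left out, and members called lower 2 to 2. Left-out ranges (higher, then lower) were 2 to 4 and 4 to 9 for shAPE1 vs shCtrl, 0 to 2 and 13 to 19 for shCtrl vs rABS, 28 to 31 and 2 to 4 for shAPE1 vs Parental, and 29 to 32 and 1 to 1 for shCtrl vs Parental. With a minimum of 1.5-fold, 1 member was lower in rABS than in Parental, and 0 were higher and 2 lower in shAPE1 than in shCtrl. At the same minimum, 0 were higher and 3 lower in shCtrl than in rABS, and 19 higher and 1 lower in shAPE1 than in Parental. The share of all genes at this minimum was not counted. Without the filter, 3 were higher in shAPE1 than in shCtrl, 1 higher in shCtrl than in rABS and 2 lower in shCtrl than in Parental. DESeq2 called 1 higher in shCtrl than in rABS, and a fit of only the 2 groups called 2 lower in shCtrl than in Parental; the cause of these differences was not tested. With rABS as the control of shAPE1, 2 were higher and 24 lower, and the sign turned for FBL (-0.19), POLR1A (-0.025), NCL (-0.34), NOLC1 (-0.17), NOP14 (-0.20), RRP12 (-0.20), PES1 (-0.24), BOP1 (-0.18), NOP2 (-0.37) and NIP7 (-0.23 on the log2 scale); that comparison contains the difference between shCtrl and rABS. Same-numbered libraries of 2 groups had correlated deviations of -0.17 to 0.07, and in no comparison did all 6 libraries correlate best with their own number. In shAPE1 vs shCtrl 4 of the 6 did, with correlations of 0.021, 0.067 and 0.015. The numbers were not taken as pairs. With the replicate block, 3 members instead of 5 were higher in shAPE1 than in shCtrl, and the other counts stayed within 1.5 times. PPAN was not tested at a minimum count of 50. With unscaled totals, 49 of 152 group levels moved by over 1 SD. PPAN (455), GAR1 (2189), MRTO4 (3816) and RRS1 (4566) had the fewest counts over all 12 libraries, which limits their precision; intervals cover the spread between these libraries alone.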
